A study of Mus musculus with 12 samples.

Results

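The immunoglobulin constant region genes encode the part of an antibody chain that decides its class. Here, the 10 genes Ighm, Ighd, Ighg1, Ighg2b, Ighg2c, Ighg3, Igha, Igkc, Iglc1 and Iglc2 were described, taken by name out of the 31272 gene names measured, and all 10 were found on 1 row each. RNA was sequenced from bone marrow cells sorted as hematopoietic stem cells (HSCs) from wild-type (WT) C57BL/6 mice, whose age is not given in the sources used here. The 12 libraries formed 4 groups of 3, named Ctrl (not irradiated), IR (total body ionizing radiation), Ab_IR and L_IR. Ab_IR and L_IR are further irradiated groups whose prefixes are not spelled out, so the names are used as given. The irradiated groups were collected 3 days after exposure. According to the study's methods, lineage-positive cells were first removed magnetically, and the HSC gate was Lineage- Sca-1+ c-Kit+ Flt3- CD34-, with CD3e, B220, Gr-1, Mac-1 and Ter-119 as lineage markers. Neither the number of animals behind a library nor any pooling is stated, so a p-value measures the spread between libraries only. Values are FPKM (fragments per kilobase of transcript and per fixed number of mapped fragments), a level scaled for gene length and library size, and the depth behind them is unknown.

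As background, an antibody is built of paired heavy and light chains. Each chain joins a variable region, which binds antigen, to a constant region, which is kappa (Igkc) or lambda (Iglc1, Iglc2 and others) in light chains and sets the isotype in heavy chains. A B cell first makes IgM (Ighm) and IgD (Ighd) from a single long transcript. Class switch recombination then joins the same variable region to a constant gene further along the chromosome for IgG, IgE or IgA. Plasma cells, which reside in large part in the bone marrow, secrete antibody and hold its transcripts at very high levels. HSCs, in contrast, have not rearranged their antibody genes and are not known as antibody producers.

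The libraries held transcripts of several cell types. Of 12 HSC genes, Slamf1, Mecom, Hoxb5 and Fgd5 stayed under 1 FPKM in all 12 libraries. Other genes of this list were present. By group mean, L_IR had 8 of the 12 at 1 FPKM or more, Ab_IR 7, Ctrl 6 and IR 4. The HSC genes summed to 70.5 to 88.0 FPKM per library, whereas 12 neutrophil and monocyte genes summed to 8840.0 to 16422 FPKM. The cells are therefore called HSC-sorted cells below. Ctrl replicate 1 stood apart, with 44.1% of rows at 0 against 24.7% to 27.3% in the other 11 libraries. Nppa, an atrial hormone gene, read 51.2 to 63.9 FPKM in the IR libraries and in Ctrl replicates 2 and 3, and 0 to 0.26 in the other 7, a split that crosses the groups only through Ctrl. Within this split, IR can be compared with Ctrl replicates 2 and 3, and Ab_IR with L_IR. Ab_IR or L_IR against IR cannot be told apart from the split except through Ctrl replicate 1. Where the split is a term below, its size comes only from Ctrl replicate 1 against Ctrl replicates 2 and 3. Each shift it makes thus rests on 1 library, and the adjusted p beside it does not measure a replicated correction. Levels of RNA in bulk also cannot tell fewer cells of a type from less RNA per cell.

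The positions below are from GENCODE M21 on GRCm38. All 7 heavy chain genes lie on the minus strand of chromosome 12, in the order of switching Ighm (chr12:113418558-113422730), Ighd (chr12:113406604-113416324), Ighg3 (chr12:113356224-113361232), Ighg1 (chr12:113325240-113330523), Ighg2b (chr12:113302965-113307933), Ighg2c (chr12:113285325-113288932) and Igha (chr12:113254830-113260236). Igkc lies at chr6:70726435-70726966 on the plus strand. Iglc1 (chr16:19061618-19062071) and Iglc2 (chr16:19198396-19200351) lie on the minus strand of chromosome 16. The IgG genes are close copies, so the hinge exon, the flexible stretch by which the IgG subclasses differ most plainly, is shown for each from the GENCODE M21 transcripts. Capitals mark cysteine codons (TGT or TGC in frame), which tie the heavy chains of an antibody together.
Ighg1 exon 2, chr12:113329844-113329882: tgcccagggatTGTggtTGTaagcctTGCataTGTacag
Ighg2b exon 2, chr12:113307261-113307326: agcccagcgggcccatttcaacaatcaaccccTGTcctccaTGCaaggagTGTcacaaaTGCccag
Ighg2c exon 2, chr12:113288263-113288325: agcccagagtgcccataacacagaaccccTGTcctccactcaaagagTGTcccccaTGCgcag
Ighg3 exon 2, chr12:113360529-113360576: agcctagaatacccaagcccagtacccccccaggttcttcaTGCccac
These exons held 4, 4, 3 and 1 cysteine codons in 39, 66, 63 and 48 bases. Over the whole coding sequence of the secreted forms, Ighg2b and Ighg2c shared 85.9% of aligned bases, and every other pair of IgG genes 74.4% to 76.95%. The lambda genes are shown because Iglc1 and Iglc2 differed in their pattern across the groups. The stretches start at the first 9 coding bases that Iglc1, Iglc2 and Iglc3 share, and capitals mark the 14 of 60 positions at which the 3 genes are not all the same.
Iglc1, chr16:19062010-19062069: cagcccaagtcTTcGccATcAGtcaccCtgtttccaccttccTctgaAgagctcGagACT
Iglc2, chr16:19198791-19198850: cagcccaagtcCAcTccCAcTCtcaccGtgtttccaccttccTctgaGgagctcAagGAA
Iglc3, chr16:19065620-19065679: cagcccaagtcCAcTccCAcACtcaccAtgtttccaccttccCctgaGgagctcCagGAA
Iglc2 and Iglc3 differed at 4 of these positions and shared 96.2% of their coding bases, whereas Iglc1 and Iglc2 differed at 13 and shared 73.8%. At a window of 100 bases, no member shared an identical window with a transcript of another gene. At 50 bases, 5.26% of the windows of Ighg2b and 5.27% of those of Ighg2c were shared with each other, and 10.5% of the windows of Iglc2 with Iglc3. Values of these pairs are therefore less certain than those of the other members.

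Igkc was the highest of all 31340 rows in each of the 12 libraries, on the FPKM scale, which is per length. Ighg1, Ighg2b, Ighg2c and Igha ranked between 10 and 62, Ighm, Iglc1 and Iglc2 between 135 and 791, and Ighg3 between 796 and 2521. Ighd came last, between 11452 and 15866. The summed level of the 10 members was 17024, 13822 and 13524 FPKM in Ctrl, 25314, 23530.1 and 23926 in IR, 23931, 23847 and 23159.7 in Ab_IR and 34185, 34164 and 35214 in L_IR. Every irradiated library thus lay above every Ctrl library, the L_IR libraries were the highest, and IR and Ab_IR overlapped. As a share of all FPKM in a library, the members took 3.67 to 4.94% in Ctrl, 6.34 to 6.76% in IR, 5.72 to 6.08% in Ab_IR and 8.60 to 8.86% in L_IR. The panels of FPKM by library show that Ctrl was the lowest group for all members but Ighd.

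**Figure D1:**
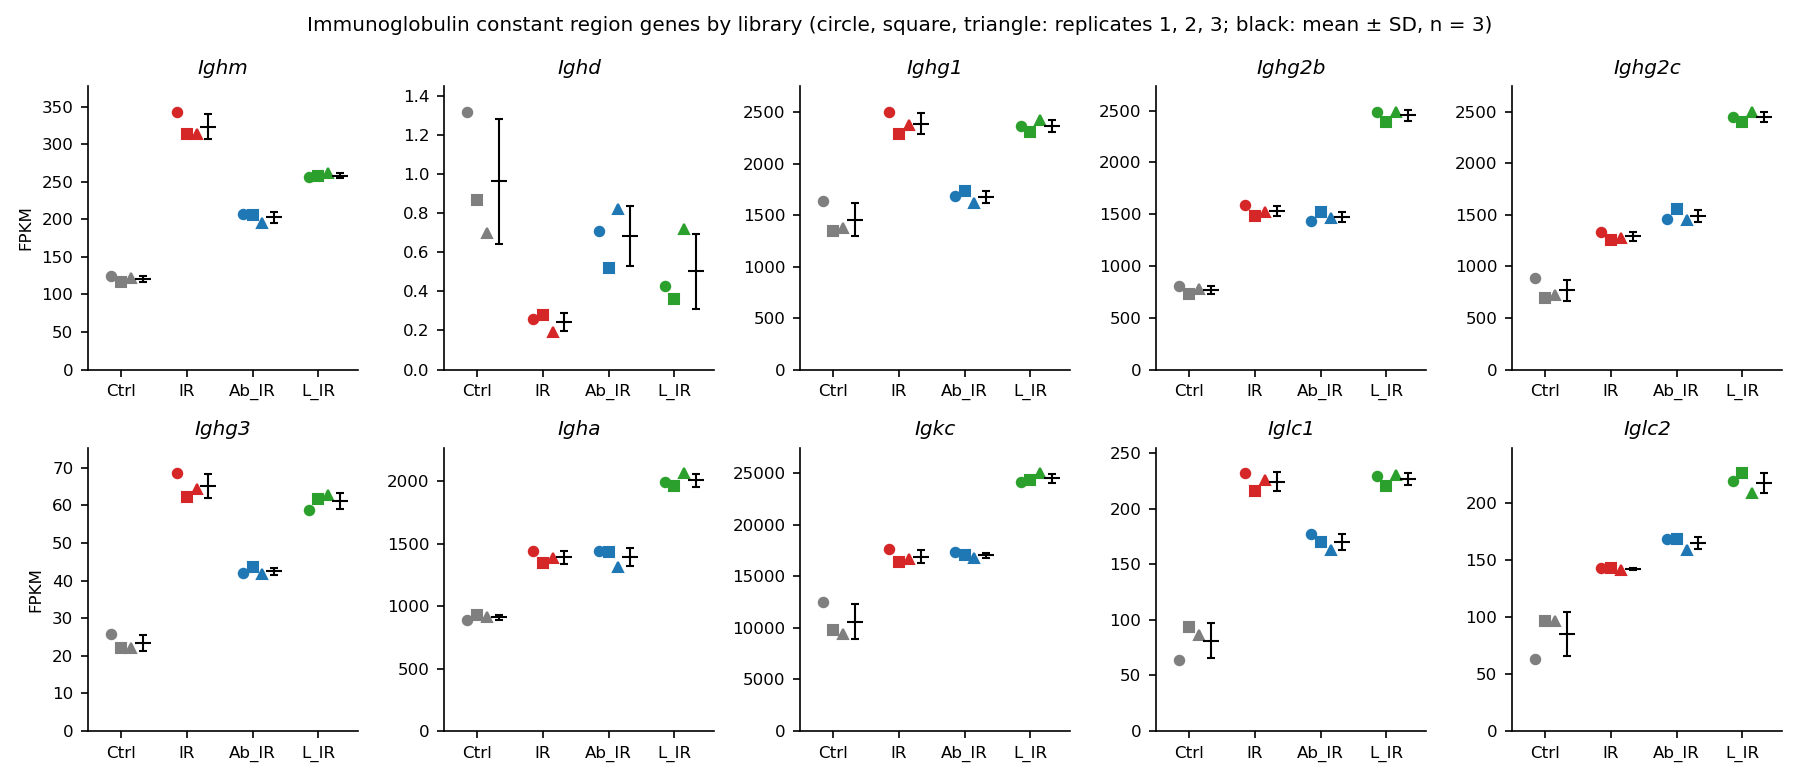
FPKM of the 10 constant region genes (linear axes from 0), 1 point per library by group, with the mean ± SD of 3 libraries in black. L_IR was the highest group for Ighg2b, Ighg2c, Igha, Igkc and Iglc2, IR for Ighm and Ctrl for Ighd.

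Ighm encodes the constant region of IgM, the first isotype a B cell makes. Its FPKM were 124, 116 and 121 in Ctrl, 343, 314 and 314 in IR, 207, 206 and 194 in Ab_IR and 256, 257 and 261 in L_IR. No group overlapped another, and the order from low to high was Ctrl, Ab_IR, L_IR and IR. On log2(FPKM + 1), Ighm rose in IR against Ctrl by 1.42 ± 0.068 (adjusted p = 3.79e-05) in limma's test across all genes, with the standard error (SE) after the sign ±. It was lower in Ab_IR than in IR by a log2 difference of -0.67 ± 0.048 (adjusted p = 1.65e-05) and lower in L_IR than in IR by -0.32 ± 0.038 (adjusted p = 2.99e-04). Against Ctrl, Ab_IR differed by 0.74 ± 0.072 (adjusted p = 0.0045) and L_IR by 1.09 ± 0.061 (adjusted p = 1.95e-04). With the Nppa split as a term, the difference of Ab_IR to IR was -0.73 (adjusted p = 1.92e-05) and that of L_IR to IR -0.38 (adjusted p = 0.0018), of the same sign.

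Ighd, the constant region of IgD, which mature naive B cells carry on their surface, was the exception. Its FPKM were 1.32, 0.87 and 0.70 in Ctrl, 0.26, 0.28 and 0.19 in IR, 0.71, 0.52 and 0.82 in Ab_IR and 0.43, 0.36 and 0.72 in L_IR. IR was the lowest group and did not overlap the others, which overlapped one another. Ighd did not reach 1 FPKM in 3 libraries of any pair of groups and was not tested, so 9 of the 10 members have tests. The ratio of Ighm to Ighd was 93.9 to 174 in Ctrl and 1119.9 to 1651 in IR, where it rested on Ighd levels of 0.19 to 0.28 FPKM.

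The 4 IgG genes encode the subclasses of the main antibody of blood. Ighg1 was at 1637, 1348 and 1378 FPKM in Ctrl, 2503, 2291 and 2373 in IR, 1686, 1733 and 1617 in Ab_IR and 2364, 2305 and 2427 in L_IR. Its libraries fell into a lower pair of groups, Ctrl and Ab_IR, and a higher pair, IR and L_IR, with overlap within each pair. The log2 difference of IR to Ctrl was 0.72 ± 0.11 (adjusted p = 0.0027), and that of Ab_IR to IR was -0.51 ± 0.048 (adjusted p = 6.75e-05). Ab_IR differed from Ctrl by 0.21 ± 0.11 (adjusted p = 0.306) and L_IR from IR by -0.014 ± 0.040 (adjusted p = 0.778), neither past the threshold. Without Ctrl replicate 1, the former was 0.30 (adjusted p = 0.045), and with the Nppa split as a term the latter was -0.28 (adjusted p = 0.010), both below an adjusted p of 0.05.

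Ighg2b was at 806, 732 and 774 FPKM in Ctrl, 1585, 1486 and 1519.9 in IR, 1438, 1525 and 1460.0 in Ab_IR and 2489.8, 2396 and 2485 in L_IR. Ighg2c, the subclass that C57BL/6 mice carry in place of Ighg2a, was at 888, 694 and 720.5 in Ctrl, 1339, 1253 and 1280.4 in IR, 1461, 1559.6 and 1449.9 in Ab_IR and 2449, 2405 and 2500.2 in L_IR. Both were highest in L_IR, at 3.19 and 3.21 times Ctrl on the FPKM + 1 scale. They rose in L_IR against Ctrl by 1.67 ± 0.083 (adjusted p = 1.21e-04) for Ighg2b and 1.68 ± 0.12 (adjusted p = 4.31e-04) for Ighg2c. Against IR, the log2 difference of L_IR was 0.68 ± 0.033 (adjusted p = 4.02e-06) for Ighg2b and 0.93 ± 0.033 (adjusted p = 1.03e-06) for Ighg2c, just short of the 2-fold limit for the latter. Both were smaller with the Nppa split as a term, at 0.59 (adjusted p = 7.28e-05) and 0.60 (adjusted p = 7.18e-05). In Ab_IR against IR, Ighg2b overlapped (-0.053, adjusted p = 0.290) and Ighg2c was higher by 0.21 ± 0.045 (adjusted p = 0.0048). With the Nppa split as a term, this last difference became -0.12 (adjusted p = 0.171), and rescaled to the sum of rows that are not immunoglobulin genes it was 0.054 (adjusted p = 0.404).

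Ighg3, the constant region of IgG3, was the lowest of the IgG genes at 25.8, 22.1 and 22.2 FPKM in Ctrl, 68.5, 62.3 and 64.2 in IR, 42.1, 43.5 and 41.8 in Ab_IR and 58.8, 61.8 and 62.8 in L_IR. Its groups stood in the order of Ighm, with IR highest but overlapping L_IR, and L_IR was not the highest group as it was for Ighg2b and Ighg2c. Pearson's r between Ighg3 and Ighm on log2(FPKM + 1) was 0.98 over the 12 libraries, as a description, since the libraries share their groups. Ighg3 rose in IR by 1.44 ± 0.081 (adjusted p = 6.34e-05) and in L_IR by 1.35 ± 0.079 (adjusted p = 2.24e-04), both against Ctrl. Ab_IR was lower than IR by a log2 difference of -0.60 ± 0.043 (adjusted p = 1.75e-05).

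Igha encodes the constant region of IgA, the antibody of mucosal surfaces. Its FPKM were 889.8, 929 and 915 in Ctrl, 1444, 1342 and 1386 in IR, 1445, 1432 and 1314 in Ab_IR and 1997, 1961 and 2064 in L_IR. IR and Ab_IR overlapped (log2 difference 0.0060, adjusted p = 0.923), whereas L_IR lay above all others. Igha rose in L_IR against Ctrl by 1.14 ± 0.078 (adjusted p = 4.31e-04), and IR differed from Ctrl by 0.61 ± 0.075 (adjusted p = 0.0013). IgA and IgM are the isotypes that join into larger units through the J chain (Jchain), and the last 60 coding bases of their secreted forms are shown because both hold, as the last codon but 1, the cysteine codon (in capitals) known to pair with it.
Ighm exon 4, chr12:113420870-113420929: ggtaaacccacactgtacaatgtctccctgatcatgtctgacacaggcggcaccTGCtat
Igha exon 3, chr12:113258771-113258830: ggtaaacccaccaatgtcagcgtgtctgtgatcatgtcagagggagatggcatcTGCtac
Jchain itself was at 630.0, 617 and 513 FPKM in Ctrl, 707, 724 and 728 in IR, 1008, 919 and 934 in Ab_IR and 1259, 1287 and 1280.1 in L_IR, with no overlap between groups. Per 100 FPKM of Igha and Ighm together, Jchain was 49.5 to 62.1 FPKM in Ctrl, 39.6 to 43.7 in IR, 56.1 to 61.9 in Ab_IR and 55.1 to 58.0 in L_IR, lowest in IR.

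Igkc, the only kappa constant gene, was at 12526, 9789 and 9409 FPKM in Ctrl, 17658, 16423 and 16623 in IR, 17305, 17008 and 16760.1 in Ab_IR and 24121, 24333 and 24973 in L_IR. L_IR was the highest group, Ctrl the lowest, and IR and Ab_IR overlapped. Igkc rose in L_IR against Ctrl by 1.22 ± 0.16 (adjusted p = 0.0060), and IR differed from Ctrl by 0.69 ± 0.15 (adjusted p = 0.013). With the Nppa split as a term, L_IR differed from Ctrl by 0.97 (adjusted p = 6.48e-07), below 2-fold. The call of Igkc in L_IR against Ctrl was also lost without the filter on low values, where 7 members were called. The difference of L_IR to IR was 0.53 ± 0.043 (adjusted p = 4.30e-05), but 0.15 (adjusted p = 0.104) with the Nppa split as a term. The difference of Ab_IR to IR was 0.011 ± 0.049 (adjusted p = 0.852), and turned to -0.37 (adjusted p = 0.0013) with the split as a term and to -0.14 (adjusted p = 0.043) when rescaled to the non-immunoglobulin sum. Ctrl replicate 1 held 130% of the mean of the other Ctrl libraries, and without it the log2 difference of IR to Ctrl was 0.82 (adjusted p = 4.91e-05).

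Iglc1 and Iglc2 encode lambda constant regions. Iglc1 was at 63.5, 93.9 and 86.5 FPKM in Ctrl, 232, 215 and 226 in IR, 177, 169.9 and 163 in Ab_IR and 229, 220.4 and 230.1 in L_IR. Iglc2 was at 63.2, 96.0 and 96.7 in Ctrl, 142, 143 and 141 in IR, 168, 168 and 158 in Ab_IR and 219, 226 and 208 in L_IR. Both were near each other in Ctrl, Ab_IR and L_IR, whereas IR held Iglc1 at its L_IR level and Iglc2 below Ab_IR. Iglc1 rose in IR against Ctrl by 1.47 ± 0.15 (adjusted p = 5.51e-04), while Iglc2 differed by 0.76 ± 0.17 (adjusted p = 0.012), short of the 2-fold limit. In Ab_IR against IR, the signs of the pair were opposite, at -0.40 ± 0.045 (adjusted p = 1.60e-04) for Iglc1 and 0.21 ± 0.035 (adjusted p = 0.0013) for Iglc2. With the Nppa split as a term these were 0.10 (adjusted p = 0.308) and 0.81 (adjusted p = 3.55e-06), so the sign of Iglc1 was not kept. In Ctrl replicate 1, the lambda genes were at 70.4% (Iglc1) and 65.6% (Iglc2) of the mean of the other Ctrl libraries, while Igkc was above it.

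In IR against Ctrl, 3 of the 9 members tested were called higher, namely Ighm, Ighg3 and Iglc1, and none lower. Of all rows tested, 3.03% were called higher and 4.57% lower in this comparison, a row being called at an adjusted p under 0.05 and a change of more than 2-fold. At an adjusted p under 0.05 alone, 9 of 9 members were higher, against 17.5% of all rows, and in 9 of 9 every IR library lay above every Ctrl library, against 25.2%. The median log2 difference was 0.76 over the members and -0.046 over all rows tested. Ighg2b stood at 0.99, and without Ctrl replicate 1, the comparison within the Nppa split, it was 1.02 (adjusted p = 1.64e-05) and 4 members were called.

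In L_IR against Ctrl, 8 of 9 members were called higher, where 2.03% of all rows were called higher and 0.620% lower, and the ninth, Ighg1, differed by 0.71 ± 0.11 (adjusted p = 0.011). The median log2 difference of the members was 1.35, with 0.00028 over all rows. The member differences ran from 0.71 (Ighg1) to 1.68 (Ighg2c). In Ab_IR against Ctrl, 1 member was called higher, Iglc1 at 1.07 ± 0.15 (adjusted p = 0.019), where 0.692% of all rows were called higher and 0.231% lower. The call changed with the library left out. Without Ctrl replicate 1, Iglc1 was at 0.91 (adjusted p = 5.66e-04) and Ighg2c was called in its place at 1.07 (adjusted p = 2.40e-04), and without Ctrl replicate 3 or any single Ab_IR library 0 members were called. At an adjusted p under 0.05 alone, 7 of 9 members were higher in Ab_IR than in Ctrl, against 1.45% of all rows, Ighg1 and Igkc (log2 difference 0.70, adjusted p = 0.090) being the others. This count was 0 without Ab_IR replicate 2, 2 without Ab_IR replicate 1, 3 without Ab_IR replicate 3 or Ctrl replicate 3, 3 with the replicate block, and 9 without Ctrl replicate 1.

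Against IR, limma called 0 of 9 members in Ab_IR and 0 of 9 in L_IR, with no member past 2-fold. Of all rows, 5.11% were called higher and 2.46% lower in Ab_IR, and 4.09% higher and 2.13% lower in L_IR. In Ab_IR, 4 members were lower than in IR at an adjusted p under 0.05 (Ighm, Ighg1, Ighg3 and Iglc1) and 2 higher (Ighg2c and Iglc2), while 29.4% of all rows were lower and 39.4% higher, so such shares were common. In L_IR, 1 was lower (Ighm) and 5 higher (Ighg2b, Ighg2c, Igha, Igkc and Iglc2), against 26.0% and 40.8% of all rows. With the Nppa split as a term, Iglc2 was called in L_IR against IR at 1.21 (adjusted p = 4.12e-07). This shift rests on Ctrl replicate 1 alone, where Iglc2 was at 65.6% of the mean of the other Ctrl libraries. The split does not separate Ab_IR from L_IR, which were compared directly. All 9 members tested were lower in Ab_IR at an adjusted p under 0.05, against 19.8% of all rows, and in all 9 the groups did not overlap, against 26.7%. Their log2 differences ran from -0.74 (Ighg2b, adjusted p = 4.21e-05) to -0.35 (Ighm, adjusted p = 5.87e-04), with 0.0063 as the median of all rows, and limma called 0 of them at more than 2-fold, where 0.238% of all rows were called lower and 0.295% higher. The 6 comparisons share libraries, so their member differences are not independent. The plot of log2 fold changes sets them side by side.

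**Figure D2:**
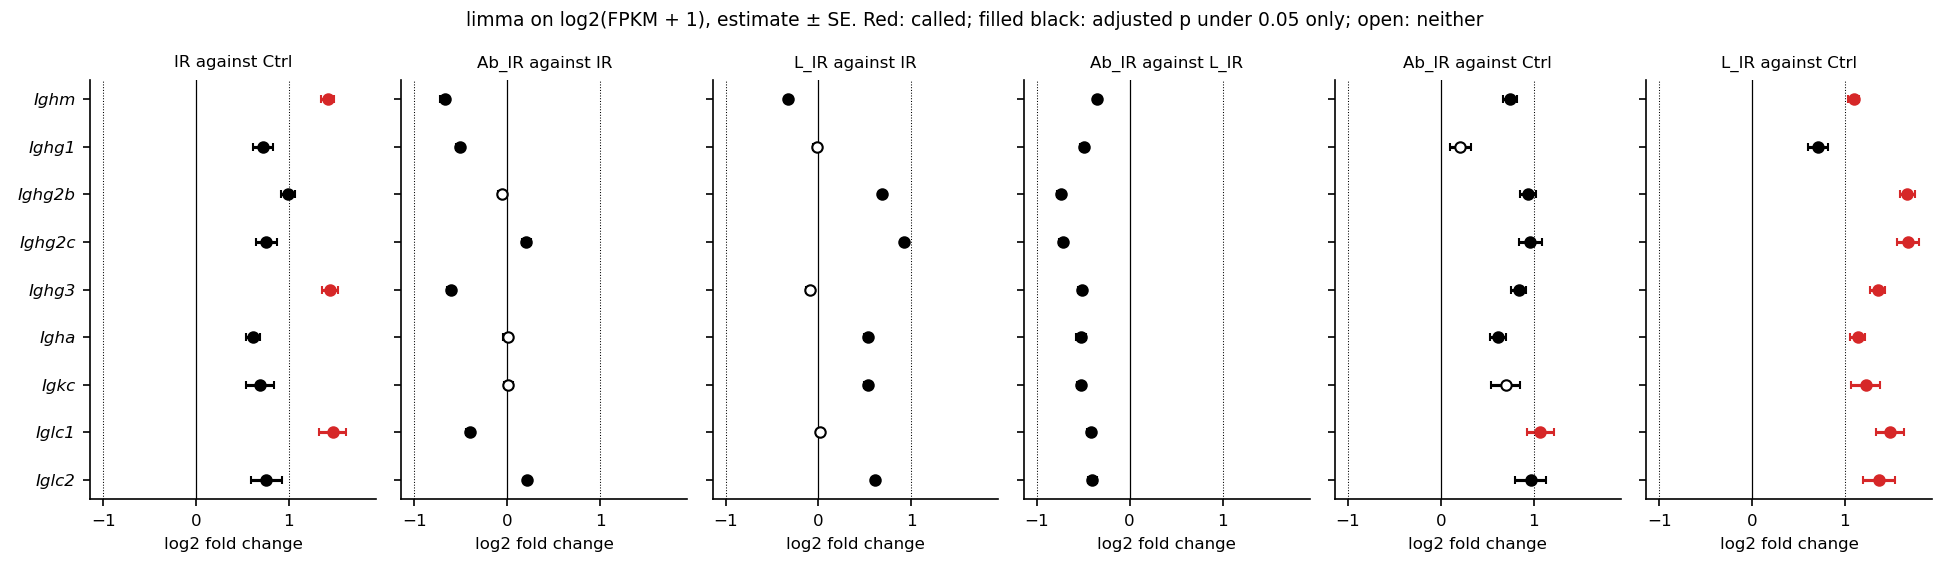
log2 fold change (x axis, limma on log2(FPKM + 1), first group minus second) ± SE of the 9 tested members in 6 comparisons, with dotted lines at a 2-fold change. Red points are called, filled black points have an adjusted p under 0.05 only and open points neither; 8 points are red in L_IR against Ctrl, 3 in IR against Ctrl and 1 in Ab_IR against Ctrl.

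Which isotypes made up the heavy chain transcripts was read as shares of the summed FPKM of the 7 heavy chain genes. Switched isotypes (the 4 IgG genes and Igha) held 97.1, 97.0 and 96.9% in Ctrl, 95.3, 95.3 and 95.5% in IR, 96.7, 96.8 and 96.8% in Ab_IR and 97.3, 97.3 and 97.3% in L_IR. IR had the lowest switched share and L_IR the highest, and no pair of groups overlapped. The share of Ighm moved in the opposite way, from 2.98 ± 0.132% (SD, n = 3) in Ctrl to 4.63 ± 0.096% in IR, 3.22 ± 0.063% in Ab_IR and 2.69 ± 0.043% in L_IR. In a two-sided exact permutation test of 3 against 3 libraries, p was 0.1 for each of the 6 pairs, the smallest that this design can give, and 0.12 after adjustment over 24 tests, so no share can pass 0.05. The share of Igha was 20.4, 24.2 and 23.3% in Ctrl, 19.8, 19.9 and 20.0% in IR, 23.0, 22.0 and 21.6% in Ab_IR and 20.8, 20.9 and 21.1% in L_IR. Ctrl replicate 1 was the low Ctrl library here, and Ctrl overlapped Ab_IR and L_IR (exact p = 0.9 and 0.4), while IR lay below the other 3 groups without overlap (exact p = 0.1 each).

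Among the IgG subclasses, Ighg1 took a smaller and Ighg2c a larger share in Ab_IR and L_IR than in Ctrl and IR. Ighg1 made up 47.6 to 48.8% of the IgG sum in Ctrl, 45.0 to 45.5% in IR, 35.4 to 36.4% in Ab_IR and 32.1 to 32.5% in L_IR. For Ighg2c the shares were 24.8 to 26.5%, 24.4 to 24.6%, 31.6 to 32.1% and 33.3 to 33.6% in the same order, and for Ighg2b 24.0 to 26.7%, 28.8 to 29.2%, 31.1 to 32.0% and 33.2 to 33.8%. The ratio of Ighg2c to Ighg1 was 0.54, 0.51 and 0.52 in Ctrl and 0.53, 0.55 and 0.54 in IR, but 0.87, 0.90 and 0.90 in Ab_IR and 1.04, 1.04 and 1.03 in L_IR. Ctrl and IR thus overlapped in this ratio, and both lay below every Ab_IR and L_IR library. Ctrl replicate 1, which is on the Nppa side of Ab_IR and L_IR, had a ratio of 0.54. It is a single library that stood apart, and the part of the split in these ratios was not tested. The subclass ratios were picked after their values were seen and carry no test.

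**Figure D3:**
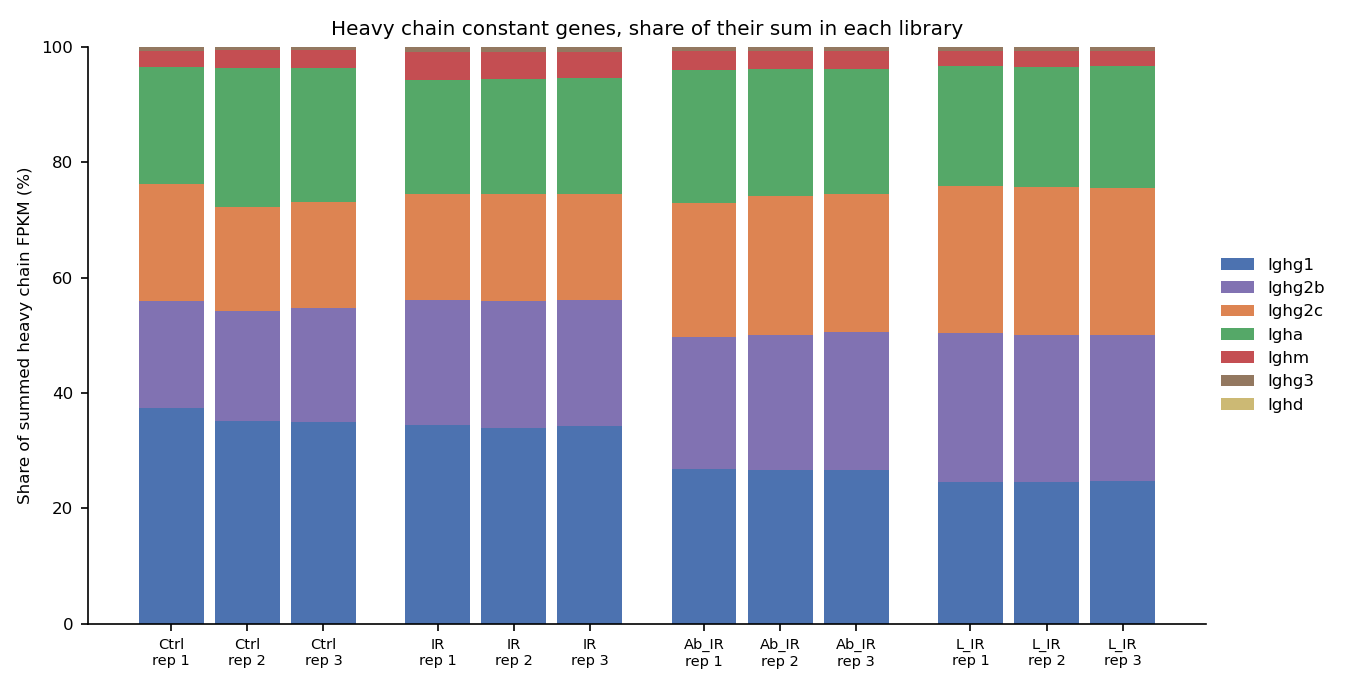
Share (%) of each heavy chain constant gene in the summed FPKM of the 7 genes, 1 stacked bar per library. Ighg1, at the bottom, took 34.0% to 37.4% in Ctrl and IR and 24.6% to 26.9% in Ab_IR and L_IR; Ighd is too low to be seen.

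The kappa level was far above the lambda level in all libraries. The ratio of Igkc to Iglc1 plus Iglc2 was 98.9, 51.5 and 51.4 in Ctrl, 47.2, 45.8 and 45.3 in IR, 50.2, 50.3 and 52.2 in Ab_IR and 53.9, 54.5 and 56.9 in L_IR. IR was the lowest group and overlapped no other, and Ctrl replicate 1 lay far above all other libraries. On the log2 scale IR differed from Ctrl by -0.47 (exact p = 0.1), and by -0.16 without Ctrl replicate 1. Ab_IR and L_IR differed from IR by 0.14 and 0.26 (exact p = 0.1 each), but by -0.20 and -0.079 with Iglc2 alone as lambda. L_IR against Ctrl was at -0.22 (exact p = 1), and at 0.099 without Ctrl replicate 1. Of the 6 pairs of groups, 6 did not overlap in the Ighm share, of which the switched share is nearly the complement, and 4 each in the IgA share and in the kappa to lambda ratio. The ratio of Iglc1 to Iglc2 was 0.89 to 1.004 in Ctrl, 1.01 to 1.05 in Ab_IR and 0.98 to 1.104 in L_IR, against 1.51 to 1.63 in IR.

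The variable genes gave a second reading of light chain use. Summed kappa variable (Igkv) over summed lambda variable (Iglv) FPKM was 30.1, 24.8 and 24.0 in Ctrl, 15.4, 16.04 and 15.7 in IR, 21.6, 21.6 and 22.5 in Ab_IR and 23.9, 24.1 and 24.3 in L_IR, again lowest in IR. Iglv1, which joins to Iglc1 or Iglc3, was at 107 to 161 FPKM in Ctrl, 528 to 545 in IR, 279 to 292 in Ab_IR and 422 to 425 in L_IR, with IR the highest. Iglv2, which joins to Iglc2, was also highest in IR, at 87.9 to 98.1 FPKM against 46.7 to 52.9 in L_IR, whereas Iglv3 was highest in L_IR, at 199 to 201.2 FPKM against 125 to 132 in IR. Light chain constant FPKM exceeded the heavy chain sum in all libraries, at 2.44 to 2.89 times in Ctrl, 2.45 to 2.49 in IR, 2.67 to 2.81 in Ab_IR and 2.56 to 2.64 in L_IR.

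**Figure D4:**
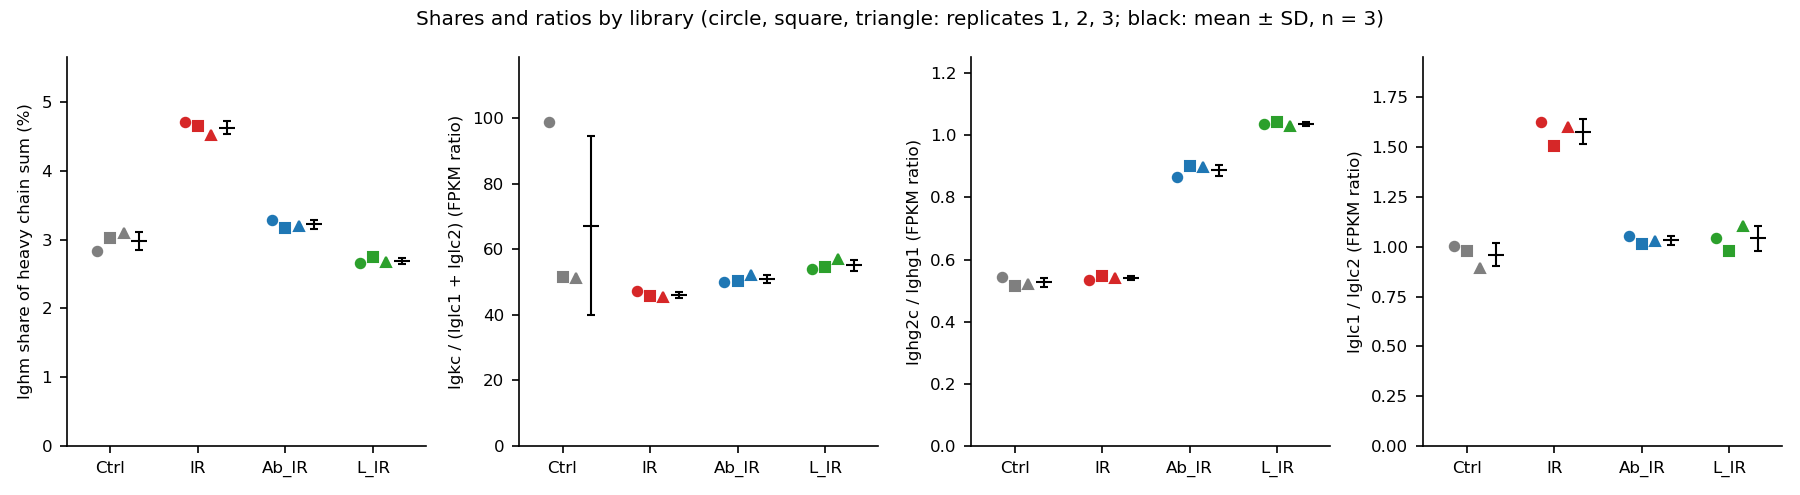
Ighm share of the heavy chain sum (%), and the FPKM ratios Igkc to Iglc1 plus Iglc2, Ighg2c to Ighg1 and Iglc1 to Iglc2 by group, 1 point per library, with the mean ± SD of 3 libraries in black. IR is highest for the Ighm share and the Iglc1 to Iglc2 ratio, the Ighg2c to Ighg1 ratio is higher in Ab_IR and L_IR, and 1 Ctrl library stands at 98.9 for kappa to lambda.

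Of the 3 constant genes outside the members, Ighe and Iglc3 could be tested. Ighe, for IgE, was at 2.65, 4.39 and 4.27 FPKM in Ctrl, 28.0, 28.9 and 28.9 in IR, 20.6, 22.5 and 20.8 in Ab_IR and 34.0, 35.4 and 36.0 in L_IR. It rose in IR, Ab_IR and L_IR against Ctrl by 2.65, 2.25 and 2.94 on the log2(FPKM + 1) scale (adjusted p = 7.03e-05, 0.0013 and 1.55e-04). Iglc3 was at 17.9 to 21.1 FPKM in Ctrl and 54.2 to 57.5 in L_IR, and rose in L_IR by 1.46 (adjusted p = 1.55e-04) and in Ab_IR by 1.12 (adjusted p = 0.0016). It differed by 0.93 in IR (adjusted p = 4.26e-04), below 2-fold. In Ab_IR against IR the signs were opposite, at -0.41 for Ighe (adjusted p = 1.18e-04) and 0.19 for Iglc3 (adjusted p = 0.015). Iglc4 stayed under 1 FPKM in all libraries.

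Plasma cell genes were present in all groups. All 17 of a list of plasma cell markers were tested, and their sum was 787 to 899 FPKM in Ctrl, 1329 to 1356 in IR, 1273 to 1361 in Ab_IR and 1701 to 1722 in L_IR. In IR against Ctrl, where 3.03% of all rows were called higher, 5 rose and 0 fell, namely Pou2af1 (2.32), a B cell coactivator, Mzb1 (1.59), a chaperone of antibody assembly, Creld2 (1.53), Xbp1 (1.37), which drives the secretory program, and Derl3 (1.04), which serves disposal of misfolded proteins (adjusted p from 1.84e-05 to 0.0073). The median log2 difference of the list was 0.64 here, 0.97 in L_IR against Ctrl and -0.46 in Ab_IR against L_IR, with -0.046, 0.00028 and 0.0063 over all rows. Of these, Pou2af1, Xbp1 and Creld2 fell in Ab_IR against IR by 1.93, 1.06 and 1.31 on the log2 scale, and 0 genes of the list were called higher by limma. With the Nppa split as a term, Xbp1 (-0.83) and Creld2 (-0.86) were no longer past 2-fold. At an adjusted p under 0.05 alone, 9 genes were lower in Ab_IR than in IR (29.4% of all rows were) and 4 were higher (39.4% of all rows), Jchain (0.40), Sdc1 (0.39), Tnfrsf17 (0.60) and Slamf7 (0.45). In L_IR against Ctrl, where 2.03% of all rows were called higher, 8 rose, and they were Mzb1 (1.51), the B cell maturation antigen gene Tnfrsf17 (1.29), Irf4 (1.27), Slamf7 (1.23), syndecan-1 (Sdc1, 1.21), Derl3 (1.21), Pou2af1 (1.13) and Jchain (1.12), with adjusted p from 1.15e-04 to 0.032. In L_IR against IR, Tnfrsf17 (1.29) and Slamf7 (1.04) rose, and Creld2 (-1.23) and Pou2af1 (-1.19) fell. With the split as a term, Slamf7 (0.93) and Creld2 (-0.79) in L_IR against IR and Pou2af1 (0.95) in L_IR against Ctrl were below 2-fold. The call of Mzb1 in L_IR against Ctrl was lost without Ctrl replicate 3 (adjusted p = 0.054) or any 1 L_IR library (adjusted p = 0.126 to 0.137). Derl3 in IR against Ctrl without Ctrl replicate 2 (0.99) and Slamf7 in L_IR against IR without IR replicate 1 (0.97) were just below 2-fold. In Ab_IR against L_IR 0 were called by limma, and 14 of 17 were lower at an adjusted p under 0.05, none higher, where 19.8% of all rows were lower.

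The plasma cell list did not move as a single block. Without Jchain, its other 16 genes summed to 242 to 282 FPKM in Ctrl, 621 to 628 in IR, 339.7 to 354 in Ab_IR and 434 to 442 in L_IR, so IR had the highest sum. Xbp1 and Creld2 weighed most in it, and by gene, 6 of the 16 had their highest mean in IR (Xbp1, Creld2, Mzb1, Pou2af1, Fkbp11 and Tnfrsf13b) and the other 10 in L_IR. Xbp1 was at 200.76, 200.97 and 199.43 FPKM in IR and 108, 108 and 107 in L_IR. Sdc1 went the other way, at 5.71, 6.03 and 5.65 in IR and 11.4, 11.5 and 11.7 in L_IR. The other genes of the list with a mean of at least 1 FPKM were Prdm1 (1.23 to 1.61 FPKM in Ctrl, 2.62 to 3.16 in IR and 3.56 to 4.03 in L_IR), Txndc5 (34.7 to 38.6, 65.8 to 69.3 and 67.5 to 71.2), Tent5c (7.50 to 8.92, 10.4 to 11.02 and 12.9 to 13.4), Fkbp11 (3.32 to 5.47, 7.63 to 7.83 and 4.72 to 5.16), Eaf2 (0.67 to 1.22, 1.13 to 1.22 and 1.41 to 2.03), Ell2 (6.12 to 7.71, 6.30 to 6.38 and 7.55 to 7.67) and Tnfrsf13b (22.4 to 30.6, 27.9 to 29.0 and 26.5 to 29.0). These ranges leave out Ab_IR, where Prdm1 was at 1.48 to 1.70 FPKM, overlapping Ctrl, and Tent5c at 10.45 to 11.25, overlapping IR. The Ab_IR levels of the rest are not given here. Of 24 genes for folding and secretion of antibody, Sdf2l1 (1.26) and Edem1 (1.08) rose in IR against Ctrl, where 3.03% of all rows were called higher, Pdia4 fell in Ab_IR (-1.06) and Sdf2l1 in L_IR (-1.01) against IR, and limma called 0 in the other 3 comparisons. Sdf2l1 in L_IR against IR was at -0.98 without IR replicate 2 and at -0.50 with the split as a term. At an adjusted p under 0.05 alone, 16 of the 24 were higher and 1 lower in IR than in Ctrl, where 17.5% of all rows were higher, and 19 were lower than in IR both in Ab_IR and in L_IR, where 29.4% and 26.0% of all rows were lower. The sum of the 24 genes was 4734 to 4784 FPKM in IR against 3209 to 3334 in L_IR and 3115 to 3451 in Ctrl.

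**Figure D5:**
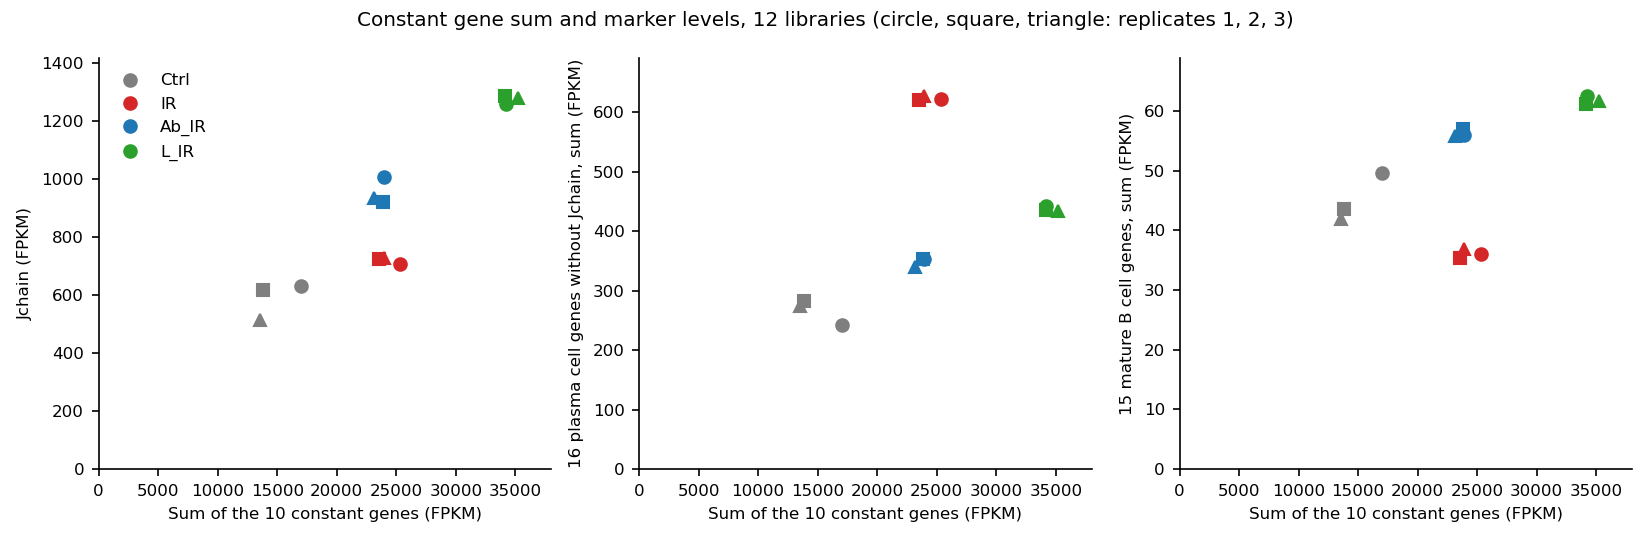
Jchain, the sum of 16 plasma cell genes without Jchain and the sum of 15 mature B cell genes (y axes, FPKM) against the summed FPKM of the 10 constant genes (x axis), 1 point per library. L_IR lies at the upper right for Jchain, whereas IR lies highest for the sum of the 16 other plasma cell genes, of which 10 by themselves were highest in L_IR, and lowest for the mature B cell sum.

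Mature B cell genes were low beside these. Of 15 listed, 8 never reached 1 FPKM in any library, Ms4a1 (CD20), Pax5, Ebf1 and Cd22 being examples, and the sum was 42.0 to 49.7 FPKM in Ctrl, 35.4 to 36.9 in IR, 55.9 to 57.1 in Ab_IR and 61.3 to 62.6 in L_IR. IR was thus the lowest group, as it was for Ighd. Cd79b, a signalling chain of the B cell receptor, and Cd72 rose against IR in Ab_IR by 1.12 and 1.25 and in L_IR by 1.15 and 1.17 (adjusted p from 2.95e-06 to 5.04e-04), and no other gene of the list was called in any of the 6 comparisons. Without IR replicate 1, Cd72 in L_IR against IR was at 0.99. Cd79a was at 11.5 to 16.8 FPKM in Ctrl, 14.2 to 15.6 in IR and 23.0 to 23.3 in L_IR, Ly6d at 7.77 to 10.8, 7.15 to 8.12 and 7.74 to 8.23, and Fcrla at 2.17 to 2.28, 1.97 to 2.66 and 3.10 to 4.24. Of the 9 pro-B and pre-B cell genes, the recombinase genes Rag1 and Rag2 stayed under 1 FPKM. Dntt, which adds bases where antibody genes are joined, was at 14.3, 13.6 and 12.4 FPKM in Ctrl, 0.35, 0.30 and 0.26 in IR, 13.01, 12.5 and 12.3 in Ab_IR and 4.24, 4.20 and 4.61 in L_IR. It fell in IR by 3.47 on the log2 scale (adjusted p = 5.11e-06), against the direction of the constant genes, and rose against IR by 3.38 in Ab_IR and 2.04 in L_IR (adjusted p = 2.36e-08 and 4.02e-07). Of the surrogate light chain genes, Vpreb1 was at 1.64 to 1.91 FPKM in Ab_IR and 0.11 to 0.26 in IR. Igll1 was at 1.21 to 1.56 in Ab_IR and 0.05 to 0.09 in IR. Their log2 differences of Ab_IR to IR were 1.21 and 1.17, both called. In comparisons with IR, these genes and Dntt passed the filter only through the other group, so their calls rest on the group that admitted them. Vpreb3 rose in IR by 1.26 (adjusted p = 0.036), with 0, 1.64 and 1.61 FPKM in Ctrl and 3.79, 3.19 and 3.74 in IR. This call rests on single libraries, since without Ctrl replicate 1 the difference was 0.80 (adjusted p = 4.31e-04), below 2-fold, and without IR replicate 1, 2 or 3 the adjusted p was 0.102, 0.085 and 0.102. Il7r was at 0.66 to 1.51 FPKM in Ctrl and 0.87 to 1.33 in IR.

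Of the genes of class switch recombination, 10 were tested and limma called none, which says little of so few genes, since at most 5.11% of all rows were called in any 1 direction. With the Nppa split as a term, 1 was called higher in Ab_IR and 1 in L_IR against IR. In that fit 2079 and 1662 of all 12699 rows were called in either direction. Genes of the list with a mean of at least 1 FPKM (among them Ung, Msh6, Exo1, Trp53bp1, Rif1, Mad2l2, Xrcc4, Xrcc5 and Xrcc6) serve other DNA repair as well. Of 11 receptors that bind antibody, the mast cell and basophil IgE receptor genes Ms4a2 (-2.39, adjusted p = 8.94e-05) and Fcer1a (-1.69, adjusted p = 0.0036) fell in IR against Ctrl, and the IgG receptor genes Fcgr4 (1.76, adjusted p = 0.0040) and Fcgr1 (1.13, adjusted p = 0.0029) rose. Ms4a2, Fcer1a and the neonatal receptor gene Fcgrt rose against IR in Ab_IR (2.25, 2.02 and 1.05) and in L_IR (1.97, 1.40 and 1.03), with adjusted p from 6.66e-08 to 7.11e-05. Fcgr1 was also called higher against Ctrl in Ab_IR (1.22) and L_IR (1.46). Without Ctrl replicate 1, Fcgr1 in IR against Ctrl was at 0.96 (adjusted p = 6.15e-04), and its call in Ab_IR against Ctrl was lost without Ctrl replicate 3 (adjusted p = 0.091) or any 1 Ab_IR library (adjusted p = 0.097 to 0.136). The other receptor genes named by the rule were Fcgr2b, Fcgr3, Fcer1g and Trim21, at 17.1 to 20.3, 25.7 to 32.5, 25.4 to 54.5 and 3.62 to 5.32 FPKM in Ctrl and 18.1 to 18.7, 38.7 to 40.5, 44.7 to 48.6 and 1.98 to 2.48 in IR, none of them called. The receptor for transport of IgA and IgM, Pigr, was under 1 FPKM in all libraries.

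Marker levels of other cells moved between the groups as well. The summed level of 9 erythroid genes was 3528 to 4101 FPKM in Ctrl, 556 to 564 in IR, 3480.5 to 3639 in Ab_IR and 1704 to 1758 in L_IR. For 12 neutrophil and monocyte genes it was 11002 to 12761, 16153 to 16422, 11912 to 12496 and 8840.0 to 9059.6 in the same order. In this list, 2 genes rose in IR against Ctrl (S100a8 1.70 and S100a9 1.38) and 2 fell (Ly6c2 -2.14 and Csf1r -1.02), with a median of 0.075. Csf1r was just below 2-fold without Ctrl replicate 3 (-0.98) or IR replicate 1 (-0.99). The sums in the same order were, for 8 T cell genes 19.9 to 21.8, 11.6 to 13.3, 22.3 to 25.1 and 34.9 to 36.4, for 7 megakaryocyte and platelet genes 51.5 to 67.8, 12.03 to 14.0, 136 to 140.4 and 84.2 to 89.7, and for 7 macrophage genes 84.1 to 88.5, 61.6 to 66.8, 88.9 to 98.8 and 84.1 to 92.8. The 12 HSC genes summed to 81.0 to 88.0, 70.5 to 78.1, 78.5 to 85.5 and 85.5 to 86.2. Their part in the levels of the constant genes was not tested.

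Among 4552 rows with a mean of at least 10 FPKM and no immunoglobulin or predicted gene name, the 10 whose log2(FPKM + 1) went most closely with the summed level of the members over the 12 libraries were ranked by Pearson's r. They were Derl3 (r = 0.94), Lax1 (0.93), Tent5c (0.92), Usp5 (0.92), Myo1g (0.91), Hmox1 (0.91), H13 (0.91), Jchain (0.91), Itgal (0.89) and Ehmt2 (0.89). These r describe libraries that share groups, and no test was made. Derl3 was at 5.42 to 6.22 FPKM in Ctrl, 13.7, 13.2 and 12.5 in IR, 10.4, 11.1 and 9.49 in Ab_IR and 14.9, 15.4 and 14.4 in L_IR. Lax1, which encodes an adaptor of lymphocyte receptors, was at 8.64, 7.34 and 8.09, 10.4, 10.1 and 9.65, 10.3, 10.7 and 9.60 and 16.4, 15.9 and 14.9 in the same order. Of the 10 genes, Derl3, Tent5c and Jchain were also on the plasma cell list. The other 6 genes of that list among the 4552 rows ranked lower, with Txndc5 at 15 (r = 0.88), Mzb1 at 78 (0.74), Tnfrsf13b at 284 (0.57), Pou2af1 at 373 (0.52), Xbp1 at 669 (0.39) and Creld2 at 1254 (0.22). Usp5, for comparison, kept within 33.01 to 39.9 FPKM, so a large r can go with a small range.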

How the data were processed

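RNA-seq of 12 libraries was analysed from the deposited table of each library, which gives gene names and 1 value per row. Per the labels, stranded poly(A) libraries were made with TruSeq Stranded mRNA. The submitters' processing notes name fastp, HISAT2, StringTie and GRCm38 (mm10), whereas the study's methods name RSEM for quantification, and the annotation is not given in the sources used here. The unit of the deposited values, computed by the authors, was taken to be FPKM. Multiplied by the merged exon length in kb (GENCODE M21), they summed to 913838 to 945611 per library. Values that carry no counts allow no depth, interval or detection limit. How reads shared between near-identical copies (Ighg2b and Ighg2c, Iglc2 and Iglc3) were counted is not stated, so their values are less certain.

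limma 3.58.1 in R 4.3.3 (lmFit, then eBayes with its mean-variance trend) took log2(FPKM + 1) from the 2 groups compared, for all rows that reached 1 FPKM in 3 or more of these libraries (12067 to 12251 rows), with Benjamini-Hochberg adjustment. A row low in 1 group can pass the filter of 1 FPKM through the other group alone. Every adjusted p of a gene is limma's. In simulated data with normal noise, 200 genes with a mean log2(FPKM + 1) above 2 were made to differ by 1.5 (log2). Of these, 92.5% to 100% were called, with at most 4 others, and 1 changed gene, not called, had the wrong sign (L_IR against Ctrl). Recovery of lower genes was not simulated. Shares and ratios were compared by two-sided exact permutation tests, adjusted over 24 tests. Alternatives were another pseudocount, other filters, 3 other scalings, no trend, 1 fit of all libraries, no fold limit, a replicate block, other sums for shares and ratios, and leaving out each library, for members and listed genes alike. The Nppa split as a term, and leaving out Ctrl replicate 1 on the rows of the full fit, were added after seeing the data. The members and gene lists were chosen with earlier results of these data known. All members are named. By rule, genes of 6 lists (plasma cell, mature B cell, pro-B and pre-B cell, class switch, antibody receptor, other constant genes) are named too where their mean over the libraries reached 1 FPKM, as are the 10 rows most like the member sum. Some listed genes are not reported here. Python 3.11.15 and matplotlib 3.10.9 drew the figures.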

Additional observations from a re-analysis of the deposited data

How the results depend on the processing

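Of 105 recomputed counts of members called, 90 stayed within 1.5 times the reported count. Without the fold limit the counts were 9 in IR and 7 in Ab_IR against Ctrl, 6 each in Ab_IR and L_IR against IR, and 9 between Ab_IR and L_IR. The call of Iglc1 in Ab_IR against Ctrl was the least stable, with 0 members without the filter on low values, with quantile normalization and with the replicate block, 2 with the Nppa split as a term, and 0 to 1 when a library was left out. In L_IR against Ctrl the count was 5 with quantile normalization, under which Ighm (0.869) and Igha (0.831) fell short of 2-fold and Igkc, the top row of every library, is set to no difference by construction. With the split as a term it was 1 in L_IR against IR. Replicate numbers did not pair the samples (correlation of deviations between -0.27 and 0.21), and the replicate block changed no other member count by over 1.5 times.

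Of 246 recomputed differences in shares and ratios, 241 kept their sign. The replicate block is among them but leaves a difference as it is, so the sign could not change under it. IgA share, Ab_IR against Ctrl, turned from -0.378 to 0.223 percentage points with FPKM times exon length and ranged from -1.50 to 0.408 when a library was left out. The kappa to lambda difference to IR turned to -0.201 (Ab_IR) and -0.0791 (L_IR) on the log2 scale with Iglc2 alone as lambda, and for L_IR against Ctrl it ranged from -0.373 to 0.0989 when a library was left out, the highest being without Ctrl replicate 1. For IR against Ctrl this range was -0.630 to -0.158, the smallest difference being without Ctrl replicate 1.

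Of 945 recomputed differences of single members, 18 changed sign, all of values that were near 0 or moved with the split. In Ab_IR against IR, scaling by the median log2 ratio gave -0.0498 for Igha and -0.0447 for Igkc, and rescaling to the non-immunoglobulin sum gave -0.147 and -0.142. That rescaling moved the median of all rows from 0.061 to -0.072 in Ab_IR against IR and from 0.0063 to -0.12 in Ab_IR against L_IR. With the split as a term Ighg2c was at -0.121, Igkc at -0.373 and Iglc1 at 0.10. In L_IR against IR, Iglc1 was at -0.0669 with quantile normalization and -0.0553 with scaling by the median log2 ratio. When a library was left out, the range was -0.0194 to 0.0494 for Igha and -0.00924 to 0.0430 for Igkc in Ab_IR against IR, and -0.0432 to 0.0204 for Ighg1 and -0.0141 to 0.0384 for Iglc1 in L_IR against IR. The cause of these changes was not tested.

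The number of all rows called, from which the background shares come, moved by over 1.5 times with the filter of a mean of at least 10 FPKM (in IR, Ab_IR and L_IR against Ctrl 405, 70 and 206 rows in place of 918, 112 and 325, in Ab_IR and L_IR against IR 367 and 302 in place of 914 and 756, and 42 in place of 65 between Ab_IR and L_IR), without the fold limit (5199, 255, 1083, 8293, 8124 and 4628 rows in the same order), with the pseudocount of 0.1 (1512 and 1294 rows in Ab_IR and L_IR against IR, and 165 between Ab_IR and L_IR) and with the split as a term (2079 and 1662 rows in Ab_IR and L_IR against IR, 860 and 916 against Ctrl). It was 116 in Ab_IR against L_IR after rescaling, and in Ab_IR against Ctrl 73 without the filter and 51 to 54 without an Ab_IR library.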
